A study of Mus musculus with 18 samples.

Results

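The comparison described here is the response to dexamethasone of C2C12 myotubes that had received 20 µM ginsenoside Rc. It sets the 3 libraries labelled with 200 µM dexamethasone and 20 µM ginsenoside Rc against the 3 libraries labelled with 20 µM ginsenoside Rc alone, which makes 6 of the 18 RNA-seq libraries of the series. C2C12 is an established mouse myoblast line, and the cells were differentiated into myotubes for 5 days in 2% horse serum. Both groups received ginsenoside Rc, a triterpene glycoside of ginseng, and the labels give 36 h for both. For the first group they divide this into 12 h of pretreatment with ginsenoside and 24 h with dexamethasone, a synthetic glucocorticoid, and for the second they give no division. The labels do not say whether the ginsenoside stayed in the medium during those 24 h, and they record the 0.1% DMSO vehicle only for the groups without ginsenoside. The other 12 libraries are vehicle, dexamethasone alone, 10 µM ginsenoside Rc and 10 µM ginsenoside Rc with dexamethasone, with 3 libraries each. All 48795 gene identifiers of the table were considered, 26796 had a count in at least 1 library, and 15436 passed the filter on low counts and were tested. The labels give replicate numbers but do not say that replicates were separate cultures, so the p-values speak only for the variation among these libraries, part of which can be technical.

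Glucocorticoids enter the cell and bind the glucocorticoid receptor, a transcription factor held by chaperones in the cytoplasm, which then moves to the nucleus and switches on genes such as Fkbp5, Tsc22d3 and Per1. In skeletal muscle they are known to cause wasting: they raise the ubiquitin ligases Fbxo32 (atrogin-1) and Trim63 (MuRF1), which mark muscle proteins for degradation, and weaken signalling by insulin-like growth factor. Dexamethasone-treated C2C12 myotubes are a common culture model of this wasting. A C2C12 culture in differentiation medium is a mixture of multinucleate myotubes and of mononucleate cells that have not fused.

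The 6 libraries held 37306748 to 45388579 counts. The labelled cell type was checked against 8 myotube marker genes, all of which passed the filter, at a summed level of 17902 to 18525 CPM (counts per 1e6 counts, scaled for composition) without dexamethasone and 16944 to 18992 CPM with it. The second library of ginsenoside alone stood apart from the other 2. Scaled to the same depth, its counts differed from those of replicates 1 and 3 by a chi-square statistic of 89.2 and 87.7 per degree of freedom, against 9.43 between replicates 1 and 3 and 5.41 to 16.4 among the 3 dexamethasone libraries. Mitochondrially encoded genes took 2.79% of its counts, against 1.57% and 1.27% in the other ginsenoside libraries and 1.54% to 1.91% in the dexamethasone libraries, and ribosomal protein genes took 1.94%, against 2.80% and 2.78%, and 2.22% to 2.49%. Results are therefore given with and without this library, and "without replicate 2" beside a list's counts gives its numbers of raised and lowered genes when that library is left out. Throughout, values of 3 libraries stand in the order of replicates 1, 2 and 3, levels are CPM, and changes are log2 ratios of dexamethasone over ginsenoside alone, ± standard error. A gene is said to have risen or fallen where its Benjamini-Hochberg adjusted p in edgeR's quasi-likelihood test was under 0.05.

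Dexamethasone changed 7555 of the 15436 tested genes (48.9%): 3631 rose (23.5%) and 3924 fell (25.4%). The counts of each list are read against these shares. Most changes were small, with a median fold of 1.32 among the genes that rose and 1.47 among those that fell. More than 2-fold, 631 genes rose (4.09%) and 1108 fell (7.18%), and more than 4-fold, 189 rose (1.22%) and 375 fell (2.43%). The 2 groups did not overlap for 7734 genes (50.1%). Without the second ginsenoside library, 7964 of 15618 tested genes were called (51%), 3965 higher (25.4%) and 3999 lower (25.6%). With and without the library 6718 genes were called in the same direction and 0 in opposite directions, while 837 were called only with it and 1222 only without it. The split between directions depends on the scaling of the libraries: with total counts in place of scaling for composition, which moves the median change of all genes by -0.05, 2921 genes were higher and 4519 lower.

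**Figure D1:**
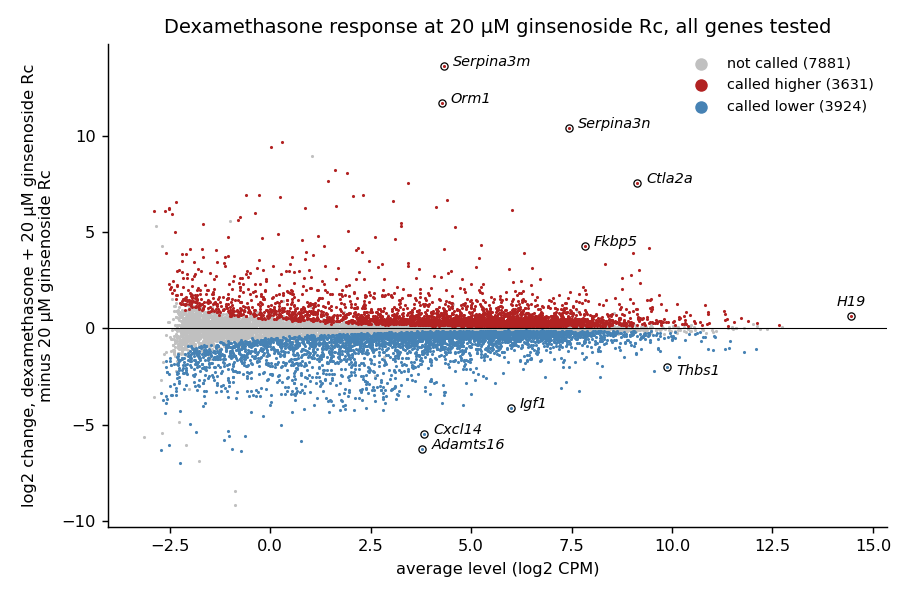
Log2 change with dexamethasone at 20 µM ginsenoside Rc (vertical axis) against average log2 CPM (horizontal axis) for each tested gene, coloured by the direction of its call. Genes called higher (3631) and lower (3924) lie on both sides of 0, and the genes furthest above 0 include Serpina3n, Serpina3m and Orm1.

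Known direct and early targets of the glucocorticoid receptor had the highest median change of the lists other than those of cell type markers. Of 32 tested targets, 26 rose and 4 fell, with a median change of 1.75, against 0.00 over all tested genes. The changes ran from -1.40 to 10.41, and 1 of the falls was over 2-fold. The targets described next all rose. Without the second ginsenoside library, the counts were 26 and 4, and the median 1.7. A promoter window in RefSeq (GRCm38.p6, from 250 bases before to 50 after the start) was found for 29 targets of the list. In any of their windows, 6 held the core of a glucocorticoid receptor element, ACANNNTGT, which reads the same on both strands. This is 20.7%, against 5.32% of 11031 tested genes with a window, counted in the same way. A match describes the letters only, and nothing on binding was measured. The windows of 4 strongly raised targets are shown from 250 bases before the start to 20 after it, with the element in capitals:
Serpina3n (chr12:104406458-104406727, plus strand): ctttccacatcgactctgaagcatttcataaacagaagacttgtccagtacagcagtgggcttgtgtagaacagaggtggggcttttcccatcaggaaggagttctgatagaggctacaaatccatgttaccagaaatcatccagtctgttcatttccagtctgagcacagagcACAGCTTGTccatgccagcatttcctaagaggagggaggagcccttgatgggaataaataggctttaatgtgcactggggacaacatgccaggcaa
Mt1 (chr8:94178839-94179108, plus strand): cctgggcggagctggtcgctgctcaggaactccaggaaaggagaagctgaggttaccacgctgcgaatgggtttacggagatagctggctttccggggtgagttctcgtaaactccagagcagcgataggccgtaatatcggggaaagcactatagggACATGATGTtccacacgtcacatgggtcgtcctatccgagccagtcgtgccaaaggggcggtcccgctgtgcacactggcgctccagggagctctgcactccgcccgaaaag
Glul (chr1:153899679-153899948, plus strand): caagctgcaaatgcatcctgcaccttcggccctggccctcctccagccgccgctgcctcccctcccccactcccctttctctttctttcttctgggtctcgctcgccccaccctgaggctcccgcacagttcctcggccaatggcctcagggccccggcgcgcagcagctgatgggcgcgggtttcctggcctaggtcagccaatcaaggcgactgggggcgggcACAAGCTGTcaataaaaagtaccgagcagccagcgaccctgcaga
Sgk1 (chr10:21978422-21978691, plus strand): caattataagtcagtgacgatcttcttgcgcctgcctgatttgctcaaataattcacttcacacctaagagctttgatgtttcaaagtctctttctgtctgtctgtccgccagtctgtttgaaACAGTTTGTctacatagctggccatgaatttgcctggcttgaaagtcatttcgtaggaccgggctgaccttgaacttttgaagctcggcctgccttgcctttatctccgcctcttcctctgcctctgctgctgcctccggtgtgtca
The element begins 76 bases before the start in Serpina3n, 92 in Mt1, 25 in Glul and 127 in this start of Sgk1, which has 6 windows. The other 2 genes with a match were Lcn2, which had only 1 or 2 counts per library without dexamethasone, and Map3k6.

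All 4 genes behind these windows rose with no overlap between the groups. Serpina3n encodes a secreted inhibitor of serine proteases (ENSMUSG00000021091, chromosome 12, 104406729 to 104414329, GRCm38). It stood at 0.257, 0.274 and 0.195 CPM without dexamethasone and 341, 339 and 318 CPM with it, a change of 10.41 ± 0.12 (adjusted p = 2.3e-20). Sgk1, a kinase that regulates ion transport, went from 43.7, 36.9 and 41.4 to 146, 145 and 132 CPM (1.79 ± 0.06). The level of Serpina3n without dexamethasone rested on 8 to 11 counts per library. Mt1, a metallothionein that binds zinc and copper, had 102, 157 and 93.9 CPM and then 981, 845 and 1055 CPM (3.03 ± 0.19), and its closely related neighbour Mt2 had 71.8, 65.9 and 57.6 and 1202, 1036 and 1301 CPM (4.18 ± 0.13). Reads of Mt1 and Mt2 may be divided between them by the counting. Glul encodes glutamine synthetase, which muscle uses to export nitrogen, and rose from 192, 203 and 197 to 1044, 1007 and 936 CPM (2.33 ± 0.05).

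The classical feedback genes of the receptor rose in every dexamethasone library. Fkbp5, a co-chaperone that lowers the receptor's affinity for hormone (chromosome 17, 28399094 to 28517527), stood at 21.7, 21.6 and 23 CPM without dexamethasone and 434, 447 and 412 CPM with it. This is a change of 4.28 ± 0.05, with an adjusted p of 2.9e-20. Tsc22d3, also known as GILZ, an anti-inflammatory leucine zipper protein (chromosome X, 140539528 to 140600659), went from 62.6, 57.3 and 57.6 to 625, 612 and 565 CPM (3.34 ± 0.06). Neither gene showed overlap between the groups. Klf15, a transcription factor that raises amino acid breakdown in muscle, was at 0.467, 0.576 and 0.318 CPM and then at 11.9, 13.1 and 11.8 CPM (4.76 ± 0.12). The clock gene Per1 was at 30.0, 40.8 and 31.2 and 126, 129 and 110 CPM (1.84 ± 0.09), and Errfi1, an inhibitor of epidermal growth factor receptor signalling, at 66, 68.9 and 59.2 and 216, 206 and 226 CPM (1.74 ± 0.06). Zbtb16, a zinc finger repressor, had no count in any library of ginsenoside alone and 2.49, 2.09 and 1.72 CPM with dexamethasone, at least 28.0-fold higher when 3 counts per library are taken as the floor.

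The receptor's own machinery changed far less. Of 20 genes for the receptor, its chaperones and the enzymes that interconvert glucocorticoids, 6 rose and 3 fell, and the median change was 0.07 (without replicate 2, 7 and 3). Nr3c1, the receptor itself, fell from 104, 102 and 104 to 93.2, 99.5 and 88.6 CPM, a change of -0.14 ± 0.05. This small fall lost its call under 5 of the alternative analyses, and without the second ginsenoside library it was -0.15 (adjusted p = 0.011). Hsd11b1, which regenerates active glucocorticoid inside the cell, rose from 33.1, 27.9 and 30.1 to 59, 51.7 and 56.2 CPM (0.87 ± 0.08), and Hsd11b2, which inactivates it, from 0.327, 0.274 and 0.269 to 1.47, 1.71 and 1.14 CPM (2.30 ± 0.37).

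Among the largest rises over all genes, several encode secreted acute-phase proteins that liver makes under glucocorticoid control. Serpina3m, a close relative of Serpina3n, had 0 counts in the 3 libraries of ginsenoside alone and 39.3, 37.7 and 37.6 CPM with dexamethasone, at least 508-fold higher at a floor of 3 counts per library. Orm1 (orosomucoid 1) had 1 count over the 3 libraries without dexamethasone and 37.2, 31.7 and 44 CPM with it, a fold of 4494 with a 95% counting interval of 806 to 177556. Its paralogue Orm2 had 3 counts and then 7.01, 6.35 and 8.82 CPM (fold 295, interval 100 to 1431). For these genes the low group is a few counts at most, so the intervals cover counting error only, and reads may be divided between paralogues. Hp, haptoglobin, went from 0.0700, 0.0548 and 0.22 to 23.1, 24.4 and 20.2 CPM (7.56 ± 0.25). Angptl7, an angiopoietin-like secreted protein, had 2 counts and then 6.42, 5.32 and 5.6 CPM (fold 347, interval 95.7 to 2871), and Sult1a1, a sulfotransferase, 3 counts and then 5.35, 4.92 and 6.41 CPM (fold 222, interval 75.6 to 1078).

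The other large rises were in genes of varied roles. Ctla2a, a cysteine protease inhibitor with near-identical relatives, went from 6.56, 4.17 and 6.84 to 1085, 1074 and 1159 CPM (7.55 ± 0.13). Mettl21e, a muscle methyltransferase, went from 0.0467, 0.137 and 0.0733 to 11.4, 10.2 and 9.74 CPM (6.92 ± 0.23). Slc10a6, a transporter of steroid sulfates, went from 0.117, 0.0274 and 0.0489 to 8.57, 8.04 and 7.56 CPM (6.86 ± 0.30). Ppl (periplakin, a linker of desmosomes and intermediate filaments) and Crispld2, a secreted protein of the cysteine-rich family, rose by 6.68 ± 0.13 and 6.60 ± 0.18. Levels of Hp, Mettl21e and Slc10a6 without dexamethasone rest on a few counts per library. For each of these genes every dexamethasone library was above every library of ginsenoside alone, which the rule for naming the largest rises required.

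The largest falls held secreted signals and genes of dividing cells. Adamts16, a metalloprotease of the matrix, fell from 23.2, 20.3 and 23.8 to 0.171, 0.337 and 0.38 CPM (-6.23 ± 0.16). The chemokine Cxcl14 fell from 26.2, 38.5 and 28.2 to 0.635, 0.516 and 0.989 CPM (-5.45 ± 0.23), and the Wnt antagonist Sfrp4 from 6.04, 9.6 and 7.75 to 0.391, 0.337 and 0.507 CPM (-4.24 ± 0.22). Neither group's range touched the other's in these genes, as the rule for naming the largest falls required. Troap and Pbk, both of mitotic cells, fell by 4.31 and 4.14 on the log2 scale. The guanylate-binding proteins Gbp9 and Gbp8, which have near-identical relatives, changed by -4.24 ± 0.22 and -4.01 ± 0.18, and the arginine deiminase Padi3 by -4.20 ± 0.30. Igha, the constant region of an immunoglobulin heavy chain, also met the rule for the largest falls, with 4.55, 3.92 and 3.52 CPM before and 0.171, 0.224 and 0.38 CPM after.

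Most genes of muscle wasting on the list rose. Of 21 tested atrophy genes, 13 rose and 1 fell, with a median of 0.40 (without the second ginsenoside library 13 and 1, median 0.34). Fbxo32 (chromosome 15, 58175879 to 58214932) stood at 94.1, 87.6 and 95.5 CPM without dexamethasone and 363, 354 and 252 CPM with it, 1.80 ± 0.11 (adjusted p = 4.1e-10). Trim63 (chromosome 4, 134315120 to 134329629) was at 34.5, 22.6 and 34.3 and 96.9, 93.8 and 75.2 CPM (1.54 ± 0.14, adjusted p = 9.6e-08). Both ubiquitin ligase genes were thus higher in each of the 3 dexamethasone libraries than in any library of ginsenoside alone. Of the forkhead factors that drive them, Foxo3 rose from 120, 133 and 119 to 244, 258 and 219 CPM (0.95 ± 0.06), Foxo4 changed by 0.45 ± 0.09, and Foxo1 was the only member of the list that fell, from 67.9, 98.7 and 72.9 to 48.1, 52.2 and 50.1 CPM (-0.67 ± 0.09). Mstn, which encodes myostatin, a secreted inhibitor of muscle growth, was low throughout, with 0.0700, 0.165 and 0.0489 and 0.293, 0.269 and 0.203 CPM (1.45 ± 0.57), and its call was lost under 7 of the alternative analyses.

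**Figure D2:**
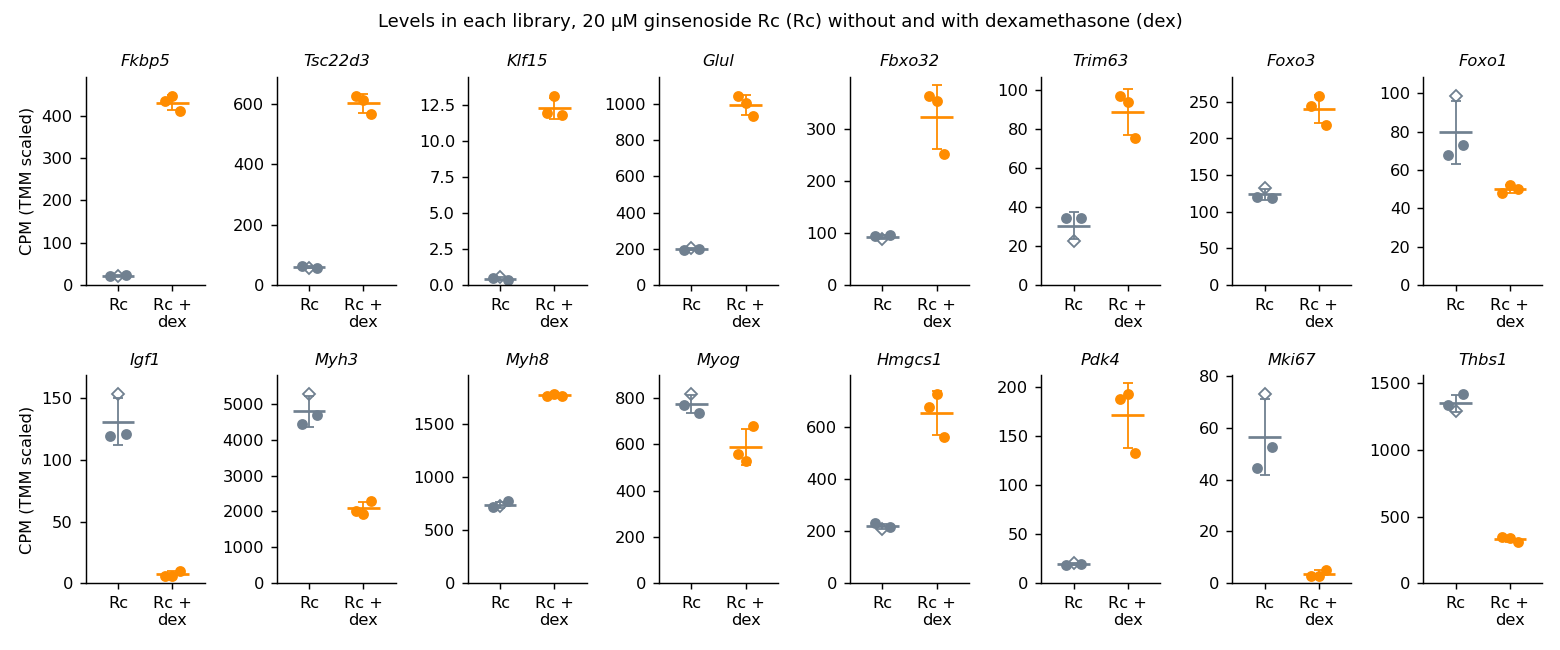
CPM (linear vertical axes, 1 panel per gene) in each of the 6 libraries, with the group's mean as a bar and its SD as the error bar (n = 3), and with the library that stood apart as an open diamond. The points show the separation between groups for Fkbp5 and Fbxo32 and the fall of Igf1, from 119, 153 and 121 CPM to 6.32, 5.99 and 10.1 CPM.

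Genes that break down amino acids and recycle cell components rose more often than they fell. In amino acid breakdown, 8 of 18 rose and 2 fell, at a median of 0.24 (without replicate 2, 8 and 3, at a median of 0.11). With total counts in place of scaling for composition, 5 rose. Prodh, the mitochondrial proline dehydrogenase, changed by 2.31 ± 0.17, and the branched-chain aminotransferase Bcat2 by 0.74 ± 0.08, whereas Bcat1, the cytosolic form, fell from 16.5, 13.8 and 18.1 to 4.08, 3.68 and 3.75 CPM (-2.07 ± 0.11). Of 32 genes of autophagy and the lysosome, 23 rose and 2 fell, with a median of 0.28 (without replicate 2, 22 and 2). Hexa, a lysosomal hexosaminidase, rose from 220, 196 and 218 to 333, 347 and 326 CPM (0.66 ± 0.06), and Atg9a, a membrane protein of the early autophagosome, from 143, 153 and 144 to 202, 208 and 198 CPM (0.47 ± 0.04). Few proteasome subunits passed the test: 4 of 31 rose and 0 fell with all libraries, 4 rose and 3 fell without the second ginsenoside library, and the medians were 0.10 and -0.01. The number that rose was 2 without the first or the third dexamethasone library, 8 without the first ginsenoside library, 7 without the third, and 1 with total counts in place of scaling for composition. Psmd4 and Psmc1, which had the smallest adjusted p of the list, changed by 0.32 ± 0.07 and 0.20 ± 0.06.

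Signalling by insulin-like growth factor and insulin changed in both directions, with 14 of 31 genes higher and 11 lower, at a median of 0.10 (without replicate 2, 15 and 11). Igf1, the growth factor itself (chromosome 10, 87858265 to 87937042), fell from 119, 153 and 121 CPM to 6.32, 5.99 and 10.1 CPM, a change of -4.13 ± 0.21 (adjusted p = 1.5e-10). Igf2 went the other way, from 696, 953 and 697 to 1075, 1086 and 1082 CPM (0.47 ± 0.09). The binding proteins Igfbp4 and Igfbp3 fell by 1.66 and 2.36 on the log2 scale. Grb10, an adaptor that restrains the insulin receptor, rose from 0.56, 0.85 and 0.586 to 9.74, 10.8 and 10.6 CPM (3.97 ± 0.14). Further along the pathway, Irs2 rose by 0.95 ± 0.11 and Irs1 fell by 0.32, Pik3r1, the regulatory subunit of PI 3-kinase, rose by 1.11 ± 0.05, and Deptor, which restrains mTOR, rose by 0.89 ± 0.07, as did Ddit4, another such gene from the list of receptor targets (1.38 ± 0.10). The receptor gene Igf1r, at -0.04 ± 0.07, did not pass the test, and Insr rose by 0.68 ± 0.07.

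Contractile genes rose more often than they fell. The sarcomere list held 43 tested genes, with 26 higher and 5 lower at a median of 0.26. The second ginsenoside library left out, 24 were higher and 7 lower, and the median was 0.25. The number higher was 18 without the first dexamethasone library and 20 without the third. With total counts in place of scaling for composition it was 19. The myosin heavy chains, whose near-identical sequences may share reads, moved in opposite directions. Myh3, the embryonic form, fell from 4427, 5255 and 4678 to 2010, 1942 and 2303 CPM (-1.2 ± 0.08). Myh8, the perinatal form, rose from 717, 729 and 774 to 1767, 1782 and 1769 CPM (1.26 ± 0.05), and Myh4, the adult fast form, from 1169, 1174 and 1214 to 2855, 2809 and 2504 CPM (1.2 ± 0.07). In each of these 3 genes the groups were apart. Mybpc1, the slow myosin-binding protein C, rose from 107, 105 and 113 to 366, 367 and 392 CPM (1.79 ± 0.06), and cardiac actin, Actc1, fell by 0.58 on the log2 scale. The slow myosin Myh7, at -0.10 ± 0.08, did not pass.

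Excitation-contraction coupling, which links the nerve's signal to calcium release, rose in 19 of 25 tested genes and fell in 2 (median 0.32, and 0.35 without the second ginsenoside library). Atp2a1, the fast-fibre calcium pump, went from 1830, 1759 and 1858 to 3424, 3260 and 3484 CPM (0.90 ± 0.05), among the 5 largest gains in mean CPM of any gene. Stim1, the calcium sensor of store-operated entry, rose by 0.67 ± 0.04, and the release channel Ryr1 by 0.58 ± 0.10. The 2 members that fell were Casq1, the calcium store protein of fast fibres, and the calcium buffer Pvalb, at -0.55 ± 0.09 and -0.80 ± 0.17. At the neuromuscular junction, 6 of 13 genes rose and 5 fell (without replicate 2, 6 and 4). Ache, acetylcholinesterase, fell from 6.74, 7.16 and 6.84 to 2.44, 2.51 and 3.7 CPM (-1.26 ± 0.13), and Dok7, the activator of the receptor kinase MuSK, rose by 0.37 ± 0.05.

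Myogenic regulators and fusion genes fell more often than they rose, with 4 of 19 higher and 10 lower, at a median of -0.23 (without replicate 2, 5 and 10). Myf6 (MRF4), the regulator of late differentiation, rose from 1.75, 2.22 and 1.95 to 11.5, 10.4 and 13.5 CPM (2.58 ± 0.12), and Myf5 by 1.25 ± 0.10. Myog, myogenin, fell from 767, 814 and 735 to 558, 528 and 677 CPM (-0.39 ± 0.09). Myod1 stood at 195, 214 and 203 and 188, 188 and 212 CPM, so the groups overlapped, and its change of -0.06 ± 0.06 did not pass (adjusted p = 0.47). Pax7, a marker of satellite cells, fell from 34.8, 43.2 and 39.1 to 17, 19.1 and 17.5 CPM (-1.12 ± 0.07). The fusogen genes Mymk and Mymx were at -0.03 ± 0.09, which did not pass, and -0.32 ± 0.12, which did.

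Genes of cell division fell together and by more than any other list. All 34 of 34 tested mitosis genes fell, with a median of -3.15, and 34 of 34 fell without the second ginsenoside library (median -3.21). Averaged over the list, log2 CPM was 4.03, 4.08 and 4.10 without dexamethasone and 0.84, 0.89 and 1.6 with it. Many mitosis genes are repressed outside division through a promoter motif, the cell cycle homology region (CHR, searched as TTTGAA on both strands). Their promoters often hold CCAAT boxes as well. Of 28 mitosis genes with a window, 21 held a CHR (75%, against 14.4% of tested genes with a window), 22 held CCAAT on either strand (78.6% against 42.8%) and 19 held both (67.9% against 5.93%). The windows of 3 strongly lowered members are shown because they hold both motifs, which are in capitals:
Mki67 (chr7:135716360-135716629, minus strand): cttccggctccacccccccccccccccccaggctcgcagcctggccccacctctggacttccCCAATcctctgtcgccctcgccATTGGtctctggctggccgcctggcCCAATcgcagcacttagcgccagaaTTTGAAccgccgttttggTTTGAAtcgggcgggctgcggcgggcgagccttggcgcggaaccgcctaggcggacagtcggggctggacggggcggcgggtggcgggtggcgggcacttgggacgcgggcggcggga
Hmmr (chr11:40733418-40733687, minus strand): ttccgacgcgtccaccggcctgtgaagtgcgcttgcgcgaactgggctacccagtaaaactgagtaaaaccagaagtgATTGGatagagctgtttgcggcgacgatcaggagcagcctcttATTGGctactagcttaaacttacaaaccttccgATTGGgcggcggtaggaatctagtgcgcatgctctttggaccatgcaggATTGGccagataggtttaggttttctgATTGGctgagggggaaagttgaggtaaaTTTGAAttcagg
Kif23 (chr9:61946780-61947049, minus strand): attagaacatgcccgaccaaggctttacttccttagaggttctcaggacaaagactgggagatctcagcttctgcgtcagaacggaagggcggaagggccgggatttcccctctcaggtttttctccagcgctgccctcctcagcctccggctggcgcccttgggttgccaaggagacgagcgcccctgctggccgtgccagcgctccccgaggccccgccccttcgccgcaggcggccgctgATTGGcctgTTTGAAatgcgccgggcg
The Mki67 window holds 2 CHR and 3 CCAAT matches, that of Hmmr 1 and 5, and that of Kif23 1 and 1.

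Mki67, the proliferation marker Ki-67, fell from 44.3, 72.8 and 52.5 to 2.88, 2.92 and 5.25 CPM (-3.95 ± 0.29, adjusted p = 2.3e-08). Hmmr, a spindle assembly factor, fell from 15.2, 18.1 and 16 to 1.00, 1.1 and 1.77 CPM (-3.67 ± 0.19), Kif23, a kinesin of cytokinesis, from 12.2, 11.8 and 13.1 to 0.757, 0.718 and 1.52 CPM (-3.64 ± 0.25), and the mitotic cyclin Ccnb2 from 12.9, 13.2 and 12.9 to 0.879, 1.19 and 1.72 CPM (-3.36 ± 0.17). In each gene the third dexamethasone library was the highest of its group, and still well below the ginsenoside group. This library was the dexamethasone library nearest to the ginsenoside group for all 34 mitosis genes. That was not particular to them: it was also the nearest for 30 of 33 called DNA replication genes and 19 of 30 called receptor targets. For nuclear genes of oxidative phosphorylation it was the nearest for 4 of 30. The share over all called genes was not counted. Without this library the mitosis median was -3.49, with 34 of 34 lower. Why this library lay nearer was not tested.

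DNA replication genes followed, with 32 of 34 lower, 1 higher and a median of -1.28 (-1.3 without the second ginsenoside library, -1.38 without the third dexamethasone library). Lig1, the replicative DNA ligase, fell from 17.9, 19.5 and 19.1 to 4.3, 4.51 and 5.43 CPM (-1.99 ± 0.10), and E2f2, a transcription factor of S phase, from 120, 123 and 122 to 23.5, 24.7 and 36.1 CPM (-2.12 ± 0.12). The member that rose was Rrm2, a subunit of ribonucleotide reductase, at 0.42 ± 0.06, and Pcna, the sliding clamp, stood at -0.07 ± 0.06 and did not pass. Of 14 genes of cell cycle exit, 4 rose and 7 fell (without replicate 2, 5 and 8). Without any 1 of the first or second dexamethasone or the first or the third ginsenoside libraries, 2 rose. Cdkn1c (p57), a cyclin-dependent kinase inhibitor of differentiating muscle, fell from 13.6, 17.1 and 14.1 to 5.62, 4.98 and 6.34 CPM (-1.40 ± 0.10), Cdkn1a (p21) fell by 0.37 on the log2 scale and Cdkn1b (p27) rose by 0.31 ± 0.07.

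Markers of undifferentiated myoblasts fell more often than they rose. Of 14 tested markers, 3 rose and 9 fell (median -0.84), and their summed level ranged from 2584 to 2871 CPM without dexamethasone and from 2152 to 2272 CPM with it. Fgfr4 and Met, growth factor receptors of myoblasts, fell by 1.75 and 0.96 on the log2 scale, while Myf5, as given above, and Id3 rose. Of the 8 myotube markers, 5 rose and 1 fell (without replicate 2, 5 and 2), and 3 rose without the first or the third dexamethasone library or the third ginsenoside library. In bulk RNA, fewer cells of a type and less RNA per cell cannot be told apart, and the share of unfused cells in the cultures was not measured, so its part in the falls of dividing-cell and matrix genes was not tested.

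Extracellular matrix genes fell broadly. Of 41 tested, 29 fell and 9 rose, with a median of -0.85 (-0.74 without the second ginsenoside library). The abundant members lost most in absolute terms: Fn1, fibronectin, went from 4626, 6108 and 5903 to 2800, 2775 and 2341 CPM (-1.07 ± 0.12), Col3a1 from 3547, 2728 and 3951 to 1584, 1742 and 1733 CPM (-1.02 ± 0.10), and the proteoglycan Bgn from 3104, 4575 and 2987 to 1605, 1580 and 1859 CPM (-1.08 ± 0.12). Col1a1 and Col1a2, the chains of type I collagen, fell by 2.20 and 1.48 on the log2 scale. Thbs1, thrombospondin 1, fell from 1336, 1290 and 1413 to 350, 340 and 307 CPM (-2.02 ± 0.08). Some members rose: the basement membrane collagens Col4a1 and Col4a2 by 1.52 ± 0.07 and 1.3 ± 0.09, and Postn, periostin, from 312, 358 and 308 to 946, 909 and 913 CPM (1.5 ± 0.06).

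Signalling by TGF-beta, bone morphogenetic proteins and activins held 7 risen and 21 fallen genes of 38, at a median of -0.34 (without replicate 2, 10 and 22). Among the ligands, Tgfb1, Tgfb2, Tgfb3 and Bmp4 fell by 0.56, 1.43, 0.62 and 1.7 on the log2 scale. Of the receptors, Tgfbr1 and the co-receptor Tgfbr3 rose (1.07 ± 0.05 and 1.86 ± 0.06) and Tgfbr2 fell (-0.76 ± 0.05). Grem1, a secreted antagonist of bone morphogenetic proteins, fell from 275, 321 and 256 to 45.7, 44.6 and 34.9 CPM (-2.77 ± 0.11). Targets of YAP and SRF, factors that respond to tension on the cytoskeleton, fell in 15 of 23 cases and rose in 3, at a median of -0.34 (without replicate 2, 5 and 15). Ccn2 (CTGF), among the best known of them, was an exception and rose from 76.2, 75.3 and 78.5 to 342, 317 and 373 CPM (2.17 ± 0.08), whereas Ajuba fell by 1.12 on the log2 scale and Ankrd1 by 1.06.

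Wnt signalling was mixed, with 12 of 38 genes higher and 17 lower, at a median of -0.04 (without replicate 2, 13 and 15). The antagonists Notum and Apcdd1 rose by 3.02 ± 0.19 and 1.83 ± 0.10, and Dkk2 and Sfrp2 fell by 2.71 and 1.6 on the log2 scale. The R-spondin receptor Lgr6 fell from 15.3, 16.6 and 17.1 to 4.22, 4.15 and 4.16 CPM (-1.96 ± 0.10). Of 15 genes of Notch signalling and Id factors, 4 rose and 7 fell (without replicate 2, 3 and 7). The Notch ligand Dll1 and the target Hes1 changed by -0.96 ± 0.07 and -1.39 ± 0.08, while Id3, Id4 and Id1 rose and Id2 fell (1.11 ± 0.15, 1.02 ± 0.41, 0.64 ± 0.15 and -1.11 ± 0.10). Feedback and immediate early genes of MAP kinase signalling fell in 17 of 31 cases and rose in 8 (without replicate 2, 10 and 16). Etv4 fell by 1.13 on the log2 scale, and the MAP kinase phosphatase Dusp1, itself a glucocorticoid target, rose by 0.92 ± 0.07.

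Genes of sterol synthesis rose without exception: 25 of 25 tested rose and 0 fell, with a median of 1.24 (1.39 without the second ginsenoside library and 1.35 without the third dexamethasone library). Averaged over the list, log2 CPM was 6.02, 5.88 and 5.96 without dexamethasone and 7.32, 7.40 and 7.04 with it. The third dexamethasone library was the nearest to the ginsenoside group for all 25 genes, as it was for the mitosis genes and for most called genes of several other lists. Hmgcs1, at the entry of the mevalonate pathway, rose from 229, 208 and 218 to 675, 723 and 561 CPM (1.58 ± 0.16). Srebf2, the factor that drives these genes, rose by 0.26 ± 0.06. Of 17 genes of the list with a window, 16 held CCAAT on either strand (94.1% against 42.8% of tested genes with a window) and 1 held the sterol element TCACCCCAC, searched on both strands, which 0.707% of tested genes with a window hold.

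Fatty acid and glyceride synthesis rose in 14 of 19 genes and fell in 3, at a median of 0.48 (without replicate 2, 16 and 3). Fasn, fatty acid synthase, rose by 1.47 ± 0.19, and Acss2, which makes acetyl-CoA from acetate, from 29.8, 22.2 and 29.9 to 53.7, 56.4 and 54.4 CPM (1.00 ± 0.09). Srebf1, the factor that drives this pathway, fell from 140, 130 and 147 to 105, 108 and 104 CPM (-0.40 ± 0.04). Of 12 tested genes of adipocytes and lipid droplets, 9 rose and 3 fell, at a median of 0.82 (without replicate 2, 9 and 3). Plin4, a lipid droplet coat protein, rose from 1.42, 1.04 and 1.34 to 51.1, 51.7 and 47 CPM (5.28 ± 0.10), and Cebpa, a factor of adipocyte differentiation, from 12.9, 13.1 and 13.8 to 67, 70.5 and 60.3 CPM (2.32 ± 0.07). Fabp4, a fatty acid carrier of adipocytes and vessels, stood at 0.0933, 0 and 0.0244 and 3.27, 3.43 and 3.37 CPM.

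These genes also belong to adipocytes, so markers of that cell type were counted. Of 8 adipocyte markers, 3 passed the filter on low counts and all 3 rose, and their summed level ranged from 16.9 to 18.3 CPM without dexamethasone and from 70.9 to 80.3 CPM with it. Cebpa and Fabp4, given above, are among them, so these rises are not a separate check. Fabp4 had 4, 0 and 1 counts without dexamethasone, so it passed the filter through groups with dexamethasone and could hardly have fallen. The defining markers Plin1 and Cfd had 0 counts in each of the 6 libraries, and Adipoq had at most 2.

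Fatty acid oxidation rose in 14 of 29 genes and fell in 3, at a median of 0.23 (without replicate 2, 11 and 4, at a median of 0.13). Pdk4, which turns pyruvate away from the mitochondrion, rose from 19, 20.3 and 20.0 to 188, 193 and 134 CPM (3.12 ± 0.13), and Fabp3, the muscle fatty acid carrier, from 38.6, 25 and 39.4 to 81.4, 77.7 and 71.5 CPM (1.16 ± 0.12). Mitochondrial biogenesis and dynamics rose in 13 of 23 genes and fell in 1, at a median of 0.19 (without replicate 2, 13 and 1). Ppargc1a (PGC-1α), the coactivator of mitochondrial genes, stood at 2.54, 3.21 and 2.49 and 4.93, 5.05 and 3.83 CPM (0.75 ± 0.11), and Mfn2, a mitofusin, at 168, 147 and 166 and 229, 225 and 205 CPM (0.45 ± 0.05). Tfam, which packages mitochondrial DNA, was at -0.01 ± 0.05 and did not pass.

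For the respiratory chain and the ribosome, the values depended on single libraries, most of all the second of ginsenoside alone. With all libraries, 30 of 71 nuclear genes of oxidative phosphorylation rose and 0 fell (median 0.25), and without it 26 rose and 1 fell (median 0.10). Without the third dexamethasone library 17 rose, and with total counts in place of scaling for composition 16 rose and 2 fell. Their average log2 CPM was 6.46, 5.95 and 6.46 in the ginsenoside libraries and 6.57, 6.52 and 6.60 with dexamethasone, so the second ginsenoside library alone was low. For the 13 protein genes of the mitochondrial genome the same averages were 8.72, 9.04 and 8.41 and 9.14, 9.03 and 8.87, and here that library was the highest of its group. With all libraries edgeR called 0 of the 13 (2 had an unadjusted p under 0.05, and DESeq2 called 2), at a median of -0.12, and without that library 5 rose (median 0.38). Of 76 cytosolic ribosomal protein genes, which have many near-identical pseudogenes, 9 fell with all libraries and 40 without the second ginsenoside library, and 0 rose in both (medians -0.01 and -0.18). The number that fell was 5 without the first dexamethasone library and 1 without the second. What set the second ginsenoside library apart was not tested.

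**Figure D3:**
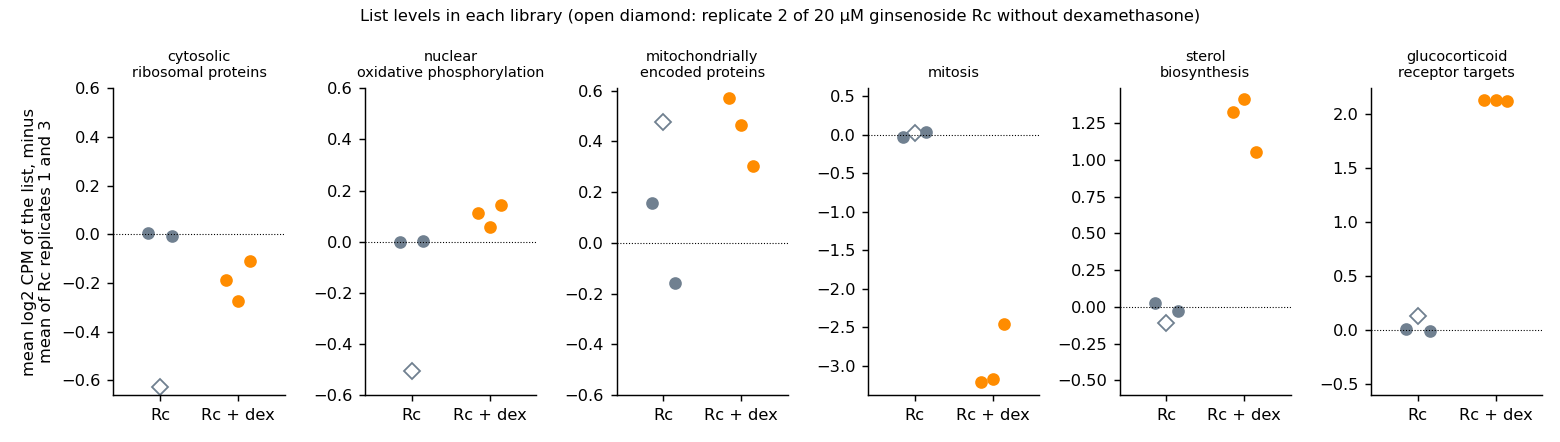
Average log2 CPM of 6 gene lists in each of the 6 libraries (1 panel per list), minus the mean of ginsenoside replicates 1 and 3. The mitosis and sterol lists separate the groups, while the nuclear oxidative phosphorylation and ribosomal protein lists are low in the second ginsenoside library (open diamond, 8.28, 7.65 and 8.27 before subtraction for the ribosomal list over the ginsenoside replicates).

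Targets of ATF4 and of the unfolded protein response, which answer amino acid shortage and misfolded protein, fell in 28 of 38 cases and rose in 2, at a median of -0.33 (without replicate 2, 2 and 28). Aldh18a1, the first enzyme of proline synthesis, fell from 62.2, 63.1 and 63 to 26.1, 29.5 and 29.3 CPM (-1.15 ± 0.06), and Pycr1, the last, by 1.37 on the log2 scale. Of the 2 that rose, Vldlr went from 22.7, 20.0 and 22 to 72.6, 73.1 and 56.5 CPM (1.64 ± 0.09). The changes of Atf4 and of the chaperone Hspa5 were -0.25 ± 0.05 and -0.35 ± 0.07.

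Inflammatory genes and targets of NF-κB fell in 18 of 37 cases and rose in 10, at a median of -0.22 (without replicate 2, 12 and 20). Ptgs2 (COX-2), which makes prostaglandins, fell from 20.2, 22.8 and 18.4 to 3.15, 2.76 and 3.55 CPM (-2.70 ± 0.10), and Has2, a hyaluronan synthase, from 51.7, 50.1 and 48.4 to 7.08, 7.32 and 9.03 CPM (-2.68 ± 0.10). The chemokine Ccl2 fell by 2.00 on the log2 scale and the inhibitor Nfkbia rose by 0.41 ± 0.06. Members that rose included the chemokine Cxcl1 (1.33 ± 0.32) and the interleukin 6 receptor Il6ra (2.29 ± 0.09). Of 27 interferon response genes, 7 were higher and 7 lower (without replicate 2, 7 and 6), shares close to the 23.5% and 25.4% of all tested genes. Irf1 fell from 25.4, 21.5 and 24.4 to 14.3, 13.9 and 14.5 CPM (-0.74 ± 0.07) and Stat2 rose from 33, 38.3 and 34.4 to 59.6, 62.8 and 53.4 CPM (0.73 ± 0.08).

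Metabolic and stress lists of other kinds changed in both directions. In glycolysis and hypoxia, 17 of 39 rose and 10 fell (without replicate 2, 16 and 11). Slc2a4 (GLUT4), the insulin-regulated glucose transporter, rose from 4.04, 3.46 and 3.25 to 15.9, 17.6 and 13.5 CPM (2.13 ± 0.12), and the carbonic anhydrase Car9 fell by 1.40 on the log2 scale. In the circadian clock, 10 of 21 rose and 3 fell (without replicate 2, 10 and 3), with Nfil3 at 1.00 ± 0.06, Arntl (BMAL1) at -0.98 ± 0.10 and Nr1d1 at -0.83 ± 0.12. Without the third ginsenoside library, 5 clock genes fell. Among antioxidant and metal genes, 17 of 33 rose and 6 fell (without replicate 2, 18 and 9), and the zinc importer Slc39a14 rose from 82.9, 76.2 and 85.9 to 172, 179 and 156 CPM (1.05 ± 0.06).

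Of 19 heat shock genes, 7 rose, among them Hspb7 (1.11 ± 0.07) and Hspb1 (1.03 ± 0.08), which encode small heat shock proteins, and 2 fell (without replicate 2, 8 and 3). Targets of p53 were even, 7 higher and 7 lower of 22 (without replicate 2, 9 and 8), with Perp and Trp53inp1 at 2.93 ± 0.11 and 1.94 ± 0.09. Of 11 imprinted growth genes, 6 rose and 3 fell (without replicate 2, 6 and 3). Mest fell from 34.1, 47.9 and 36 to 2.1, 2.56 and 3.6 CPM (-3.84 ± 0.14). H19, the abundant imprinted non-coding RNA, was at 15877, 25244 and 16478 CPM without dexamethasone and 30924, 28443 and 29286 CPM with it (0.62 ± 0.12, and 0.87 without the second ginsenoside library, which had the highest level of its group). It had the largest gain in mean CPM of any gene called higher.

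**Figure D4:**
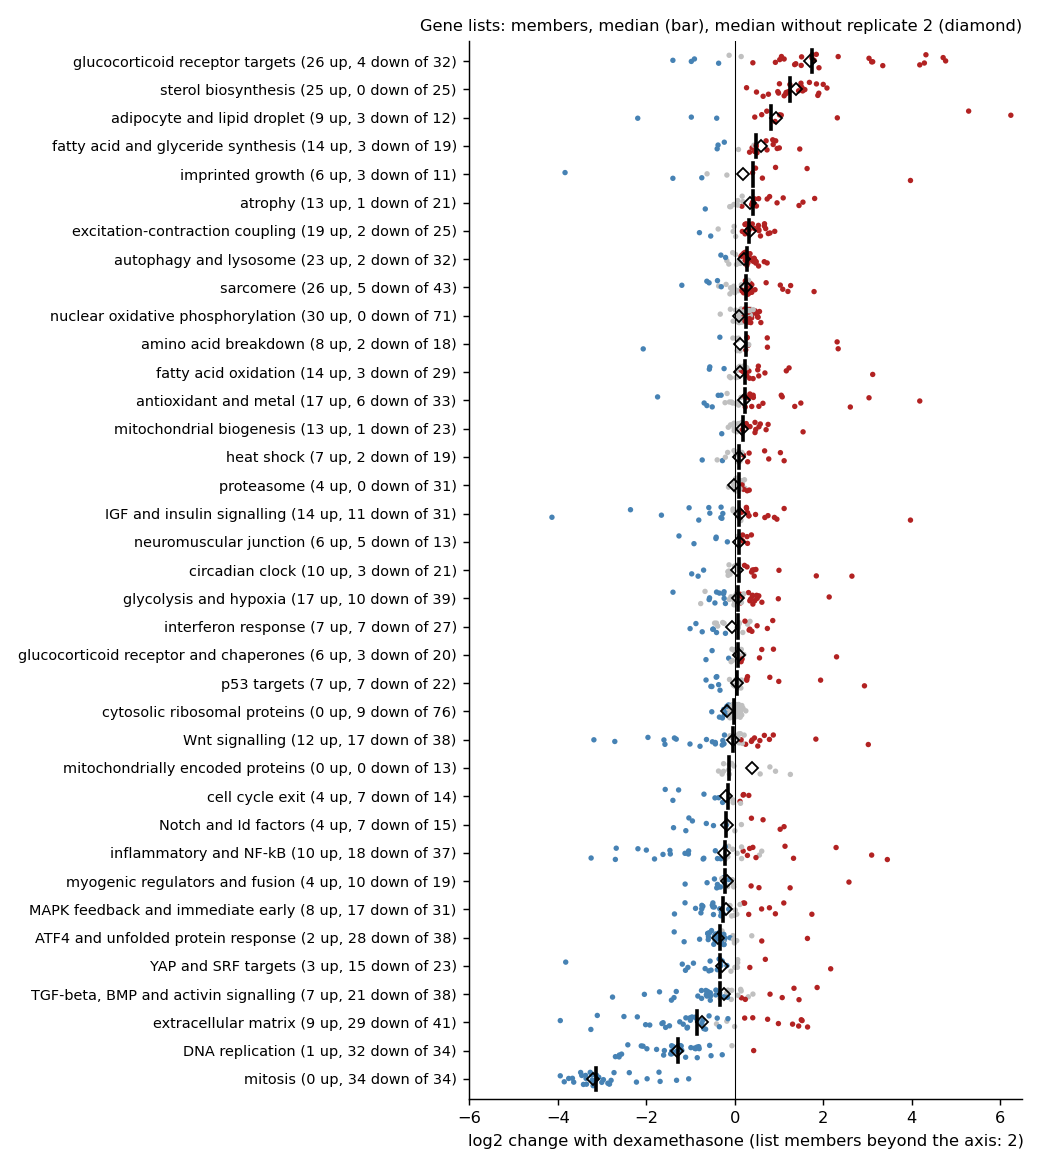
Log2 change with dexamethasone for each tested member of the gene lists, 1 row per list, with the list's median (bar) and its median without the second ginsenoside library (diamond). The mitosis list lies wholly below 0 (median -3.15) and the sterol list wholly above it (median 1.24), and 2 members beyond the axis are Serpina3n and Zbtb16.

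The other gains and losses in mean CPM that met the rule came from abundant genes. Aldoa, the glycolytic aldolase of muscle, rose from 3053, 2565 and 2921 to 4110, 3965 and 4344 CPM (0.54 ± 0.06), and Fth1, the heavy chain of ferritin, from 2039, 1881 and 1966 to 3354, 3311 and 3088 CPM (0.73 ± 0.06). Tmsb10, a thymosin that binds actin monomers, fell from 2238, 3990 and 2229 to 1383, 1145 and 1462 CPM (-1.08 ± 0.19).

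Markers of other cell types that passed the filter fell more often than they rose, which the filter itself favours for some of them. Cnn1, Alpl, Cdh5 and Csf1r had at most 7 counts in each dexamethasone library and more in each library of ginsenoside alone. Such genes can pass the filter through groups without dexamethasone only, so the number of falls says little about these cell types. Of 5 tested smooth muscle markers, 1 rose (Lmod1, 0.93 ± 0.10) and 4 fell, with Tagln, transgelin, at 173, 137 and 149 and 77.5, 70.4 and 91.8 CPM (-0.94 ± 0.10). All 3 of 3 endothelial markers tested and 3 of 5 of osteoblasts and chondrocytes fell. Of the neuronal markers, Tubb3 fell and Map2 rose (-1.08 ± 0.14 and 0.56 ± 0.09), and the epithelial marker tested, Cdh1, was at 0.15 ± 0.14 and did not pass. The summed level of the endothelial markers ranged from 1.76 to 2.39 CPM without dexamethasone and from 0.685 to 1.01 CPM with it. Of 6 leukocyte markers, 4 passed the filter, 0 rose and 1 fell, and their summed level ranged from 1.88 to 2.33 CPM without dexamethasone and from 2.08 to 2.67 CPM with it. The marker that fell was Csf1r, with 15, 18 and 19 counts and then 3, 4 and 3, while Cd68, Itgam and Lyz2 had 8 to 62 counts per library and did not pass. Ptprc and Adgre1 had 0 counts in the 6 libraries.

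The response to dexamethasone was next set beside those of myotubes without ginsenoside and with 10 µM, which are separate libraries with no control in common. Without ginsenoside, 6755 genes were called (43.8%, with 20.6% of tested genes higher and 23.2% lower), and at 10 µM 6820 (44.2%, with 21.1% higher and 23% lower). Of the genes called at 20 µM, 77.5% were called in the same direction without ginsenoside, and 86.6% of those called without ginsenoside were called in the same direction at 20 µM. Against 10 µM the shares were 77.7% and 86.0%. Across genes, the log2 changes at 20 µM had a Pearson correlation of 0.915 with those without ginsenoside and of 0.897 with those at 10 µM, and genes are not independent replicates. For 1739 genes changed over 2-fold at 20 µM, the median ratio of their log2 change to that without ginsenoside was 1.11, and these genes were chosen for a large change at 20 µM.

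Fkbp5 changed by 4.17 without ginsenoside, 4.23 at 10 µM and 4.28 at 20 µM, Fbxo32 by 1.62, 1.66 and 1.80, and Trim63 by 1.31, 1.29 and 1.54. The difference between the 20 µM response and that without ginsenoside was 0.19 for Fbxo32 (95% interval -0.14 to 0.51) and 0.23 for Trim63 (-0.18 to 0.64), neither past the test. For Igf1 the changes were -3.49, -3.82 and -4.13, and the difference -0.65 (-1.23 to -0.06), which also did not pass (adjusted p = 0.88). The sterol genes had a median change of 0.83 without ginsenoside, 0.99 at 10 µM and 1.24 at 20 µM, and the mitosis genes of -2.89, -2.98 and -3.15. These values at 20 µM include the second ginsenoside library, which stood apart. It was the lowest of its group for Fbxo32 and Trim63 and the highest for Igf1, so it enters their differences. Without it, the change of Igf1 at 20 µM was -4.01 and the mitosis median -3.21, while the sterol median, given above, was larger. In the sterol genes the libraries of dexamethasone alone were spread, with average log2 CPM of 7.16, 6.39 and 6.76, and the first of them was above the third with 20 µM ginsenoside (7.04). The median of the differences from no ginsenoside was 0.47 over the sterol genes, and 0 of them passed edgeR's test of the difference.

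A test of the difference between the 2 responses, the interaction of dexamethasone with 20 µM ginsenoside, called 0 of 15436 genes (0%) with edgeR, 816 (5.29%) having an unadjusted p under 0.05, and DESeq2 called 1. The interval of this difference reached, in the median of the 11786 genes whose average log2 CPM was 1 or more, 0.23 to either side on the log2 scale. It lay within ±1 for 97.9% of these genes. The smallest adjusted p, 0.118, was that of Lgr6, which changed by -1.13 without ginsenoside and -1.96 at 20 µM, a difference of -0.84 (-1.12 to -0.56). Lgr6 was the gene called by DESeq2. Edn1, endothelin 1, differed by 0.79 (0.46 to 1.12), Tm6sf1 by 0.38 (0.21 to 0.54) and the predicted gene Gm19410 by 2.66 (1.52 to 3.81). These genes were named for their small p and did not pass, and the intervals are not adjusted for the number of genes tested. Without the second ginsenoside library 2 genes passed, Lgr6 (-0.83) and Vgll2 (0.76, adjusted p = 0.0255), a cofactor of muscle TEAD factors named after its value was seen. With all libraries the difference of Vgll2 was 0.42 (adjusted p = 0.885).

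**Figure D5:**
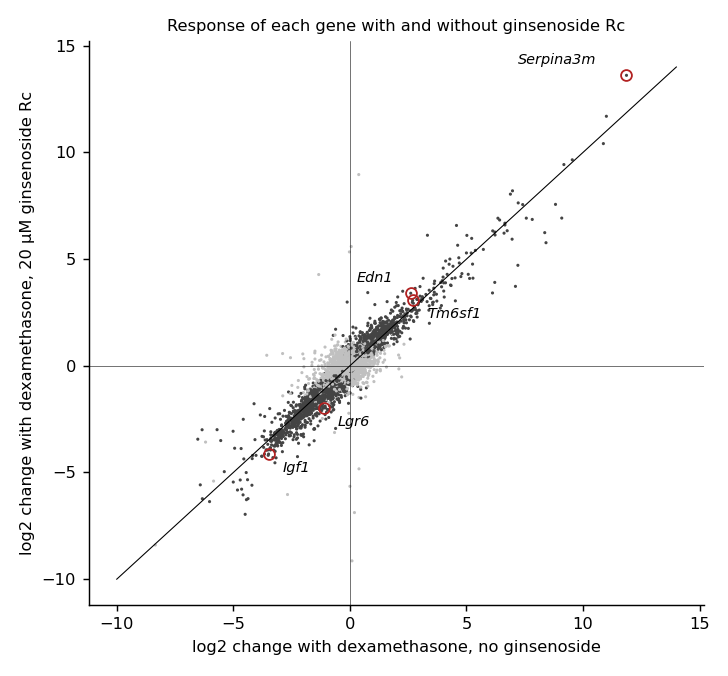
Log2 change with dexamethasone at 20 µM ginsenoside Rc (vertical axis) against that without ginsenoside (horizontal axis) for each tested gene. Points follow the diagonal (Pearson r = 0.915 across genes), and the labelled genes include Lgr6, whose difference of -0.84 had the smallest adjusted p.

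A few genes moved most with the second ginsenoside library. Taf9, a subunit of the general transcription factor TFIID, was at 4.32, 38.2 and 4.94 CPM without dexamethasone and 6.11, 3.68 and 7.07 CPM with it, so the second library alone was high. Its change was -1.48 ± 0.67 with that library, which did not pass the test, and 0.28 without it. The predicted gene Gm20431 went from -0.29 to 1.59, and Rnaset2b, a ribonuclease with a near-identical copy, from -2.47 to -0.73. Gm14440 was at 0, 2.8 and 0 CPM without dexamethasone and 2.39, 0 and 3.42 CPM with it, so without the second library its ginsenoside group is at 0 and gives no fold.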

How the data were processed

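RNA was sequenced as 100 bp paired reads from poly-A libraries. Per the submitters' processing notes, reads were handled with RSEM 1.3.3, STAR 2.7.3a, FastQC 0.11.9 and Trim Galore 0.6.5, and the build was GRCm38. The sources used here do not give the annotation release, filters or strand setting. The authors deposited expected counts per gene from RSEM (9.27% of values not whole), rounded here to whole counts. GENCODE M21 named 48435 of 48795 identifiers. The 360 others hold 0.0185% of counts.

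edgeR 4.0.16 was fitted to all 18 libraries with 6 group means (filterByExpr, TMM scaling, robust quasi-likelihood, Benjamini-Hochberg 0.05). It was checked on simulated data in which few genes changed and no library stood apart. These data differ in both, so that check cannot speak for the calls made here. DESeq2 1.42.0 and the other alternatives are in the closing section. The main fit did not pair the libraries by replicate number.

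Gene lists and members were chosen with earlier results of these data known. Genes were named by a rule: the 12 largest rises and falls and the 5 largest gains and losses in CPM among called genes whose groups did not overlap and whose average log2 CPM was 1 or more, 2 genes per list with the smallest adjusted p, 18 genes of interest, 4 of the interaction and 6 moved most by the second ginsenoside library. Other list members were named after their values were seen. Some genes that met the rule are not reported here.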

Additional observations from a re-analysis of the deposited data

How the results depend on the processing

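The counts of genes called higher and lower at 20 µM were 3631 and 3924. A test against a 1.2-fold change called 3940 genes, 1657 higher and 2283 lower. Fitting only the compared groups called 5103, 2270 higher and 2833 lower. DESeq2 called 7473, DESeq2's size factors 7544, total counts 7440 and no filter 7026. Leaving out each library in turn gave 6536 to 7964 called, 3102 to 3965 higher and 3434 to 3999 lower. With the replicate number as a block, 7424 were called, 3581 higher and 3843 lower, and the block left the interaction at 0. Same-numbered libraries of the compared groups did not deviate together (correlations of 0.0007, -0.068 and -0.043). The second ginsenoside library, which stood apart, enters these deviations, so they cannot decide whether the numbers pair the libraries. The interaction called 0 genes, 1 with DESeq2 (0 higher, 1 lower), 1 without the filter (0 and 1), and 2 without the second ginsenoside library (1 and 1), and 0 to 2 over the libraries left out (0 to 1 in each direction). Of 1738 values for named genes under alternatives, 1705 kept direction and call, 22 lost the call, 9 gained it and 2 reversed, Gm20431 and Taf9, both without the second ginsenoside library. Over the libraries left out, Gm20431 ranged from -0.77 to 1.59 and Taf9 from -1.94 to 0.28. The cause was not tested. Counts of lists without each library other than the second of ginsenoside alone were added after seeing the data. With total counts in place of scaling for composition, 2 genes of cell cycle exit and 3 myotube markers rose and 5 clock genes fell. Depth limits genes of few counts: 59 tested genes had at most 3 counts in each library of ginsenoside alone, and 66 in each with dexamethasone.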
